A study of Homo sapiens with 6 samples.

Results

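The Polycomb repressive complex 2 (PRC2) was followed here at the level of its mRNAs, through 10 subunit genes among the 58884 genes of the deposited table. They were taken by their known place in the complex, though with earlier results of these data known. They comprise the catalytic subunits EZH1 and EZH2, the core subunits EED, SUZ12 and RBBP4, the accessory subunits MTF2, PHF1 and PHF19 of the PRC2.1 form, and the accessory subunits JARID2 and AEBP2 of the PRC2.2 form. Each was found by its Ensembl identifier, and all 10 were among the 16059 genes that passed the filter on low counts.

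The RNA-seq compared DLD1 parental cells, a human colorectal cancer line with a helical domain mutation in 1 of its PIK3CA alleles, with DLD1 p85β KR-AA cells, in which CRISPR/Cas9 editing had placed K477A and R478A in both PIK3R2 alleles, PIK3R2 being the gene of the PI3K regulatory subunit p85β. These residues lie in the nuclear localization signal of p85β, and the study asked what p85β does in the nucleus and how it acts on the EZH1 and EZH2 proteins. Each genotype had 3 libraries, and the PIK3CA mutation was shared by both. The study describes more than 1 independently derived knock-in clone, but the labels of the p85β KR-AA libraries name no clone, so clone and library cannot be told apart. For p85β KR-AA replicates 2 and 3, 1 label field numbers the second substituted residue differently from the title and genotype fields, which give K477A and R478A for all 3 and were followed here. Nothing states that the 3 libraries of a genotype came from separate cultures, and the p-values below measure the spread between these libraries, which may be technical.

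PRC2 places methyl groups on lysine 27 of histone H3, and the trimethylated mark (H3K27me3) goes with transcriptional silencing of developmental genes. EZH1 and EZH2 carry the methyltransferase domain and are alternative subunits, EED binds the finished mark and stimulates the enzyme, and SUZ12 is the scaffold on which the rest assembles. The accessory subunits define 2 forms of the complex, PRC2.1, in which MTF2, PHF1 or PHF19 occupies the Polycomb-like position, and PRC2.2, which holds JARID2 and AEBP2. EZH2 and EED are textbook targets of E2F transcription factors in dividing cells, and EZH1 is usually described as the enzyme of resting cells.

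Because E2F control of PRC2 genes is well known, the starts of the 10 genes were searched for E2F-type motifs, and the matches are printed to show where such letters stand. The motifs were TTTGGCGC, TTTCCCGC, TTTGCCGC and TTTCGCGC on both strands, in the 250 bases before each annotated start (RefSeq sequences, GRCh38.p14). The 10 genes have 14 starts in that table, and 4 of these, in 4 genes, held a match, against 979 of 35116 promoters of the same length in the whole table (2.79%). All 4 motifs contain CG, and the windows of the 14 starts held 51.2% to 79.6% GC. The promoters of the whole table were not matched for GC or CpG content, so the 2 shares are not directly comparable. The stretches of 88 bases around the matches are given 5′ to 3′ on the strand of the gene, with the motif in capitals.
EZH1 (chr17:42745108-42745195, minus strand): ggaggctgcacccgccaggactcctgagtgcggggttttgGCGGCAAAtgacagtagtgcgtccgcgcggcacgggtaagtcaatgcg
SUZ12 (chr17:31936778-31936865, plus strand): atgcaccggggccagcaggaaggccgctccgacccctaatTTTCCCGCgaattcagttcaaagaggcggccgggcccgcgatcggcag
PHF19, second start (chr9:120877293-120877380, minus strand): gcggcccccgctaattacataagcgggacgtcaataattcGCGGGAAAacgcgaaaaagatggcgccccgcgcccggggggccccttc
AEBP2 (chr12:19440409-19440496, plus strand): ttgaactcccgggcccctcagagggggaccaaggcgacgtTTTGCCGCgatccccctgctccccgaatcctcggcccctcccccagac
The motif stood in reverse orientation in EZH1 and PHF19 and in forward orientation in SUZ12 and AEBP2, between 115 bases (EZH1) and 189 bases (SUZ12) before the start. No match was present in these windows of EZH2, EED, RBBP4, MTF2, PHF1 or JARID2. Of the 4 genes with a match, EZH1, SUZ12 and AEBP2 rose in p85β KR-AA cells and PHF19 fell on the scale used here, and the direction of AEBP2 turned with an offset for length and GC content and that of PHF19 with library totals.

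Library totals ran from 20301932 to 20873475 estimated counts in parental cells and from 20301396 to 26712816 in p85β KR-AA cells. Each total was multiplied by a factor from the trimmed mean of M-values (TMM), 0.677 to 0.777 in parental and 1.35 to 1.41 in p85β KR-AA libraries. The scaled totals were 13732120 to 16209483 in parental and 27444315 to 36661625 in p85β KR-AA libraries. CPM are counts relative to these scaled totals, so that 3 counts corresponded to between 0.0818 and 0.218 CPM. Relative to parental cells, this scaling put every CPM in p85β KR-AA cells lower than library totals would. Replicates of a genotype differed by more than counting noise (chi-square per degree of freedom from 4.08 to 35.8). PIK3R2 itself had 524.14, 169.29 and 312.96 counts in parental cells and 503.15, 475.99 and 124.51 counts in p85β KR-AA cells, with a log2 fold change of -0.93 that did not pass an adjusted p of 0.01 (edgeR, 0.0558). It passed with the length offset (-1.39, edgeR adjusted p = 0.00997) and with the replicate block and robust moderation (-1.01, edgeR adjusted p = 5.99e-05). It did not pass with length and GC (0.34), with library totals (-0.0041, edgeR adjusted p = 0.994) or with DESeq2 (-1.01, adjusted p = 0.169). Gene counts do not show the substitutions themselves. The libraries differed across most of the transcriptome. Of 12 markers of colon epithelium fixed as a list, 10 exceeded 1 CPM in every parental library and 9 in every p85β KR-AA library, while their summed level was 57224 to 79260 CPM in parental and 8803 to 10310 CPM in p85β KR-AA libraries. That sum was carried by the keratins KRT8, KRT18 and KRT19, and of the list 8 genes fell and 2 rose, CDH1 from 97.3 ± 33.7 to 343.8 ± 20.2 CPM and CEACAM5 from 0.388 ± 0.0380 to 20.5 ± 1.99 CPM (SD, n = 3). Of 10 markers of mesenchymal cells, 3 exceeded 1 CPM in every parental library and 8 in every p85β KR-AA library, with a summed level of 7.65 to 10.3 CPM against 6320 to 7233 CPM. In p85β KR-AA cells this sum was carried by FN1 (mean 4992 CPM) and VIM (1772 CPM). The highest mean among the other mesenchymal markers was 6.50 CPM (COL1A1), and COL1A2 and THY1 were at 3 counts or fewer even in p85β KR-AA libraries. Neuronal markers exceeded 1 CPM in every library for 1 of 6 genes in parental and 2 of 6 in p85β KR-AA cells, with DCX and ELAVL4 at 0 throughout, and blood cell markers for 1 of 4 genes in both, with MS4A1 at 0. These marker levels moved together with every subunit change described here, and their part in those changes was not tested.

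All 10 PRC2 subunit mRNAs differed between the genotypes by edgeR's quasi-likelihood test at a Benjamini-Hochberg adjusted p under 0.01, with 7 higher and 3 lower in p85β KR-AA cells. EZH1, SUZ12, JARID2 and AEBP2 rose by more than 3-fold, the fold threshold of the study, MTF2, EZH2 and RBBP4 rose by less, and EED, PHF1 and PHF19 fell by less, all on the scale set by the trimmed mean of M-values (TMM). Such calls were common in these libraries. Among all genes tested, 41.6% passed the adjusted p in the upward direction and 32.7% in the downward direction, and 28.6% rose by at least 3-fold, the group in which 4 of the 10 subunits fell. A fall of at least 3-fold was called for 17.6% of genes and for 0 of the 10 subunits by edgeR (3 were lower at an unadjusted p under 0.05) and for 0 by DESeq2. The libraries of the genotypes did not overlap for any of the 10 subunits, nor for 83.4% of all genes tested. Only EZH1, SUZ12 and JARID2 kept their direction under all 4 scalings tried (TMM, library totals, and offsets for gene length and for length and GC content), and library totals, which raised the median log2 fold change of all genes by 0.92, put all 10 subunits higher in p85β KR-AA cells. The median log2 fold change of the 10 subunits was 1.13, beside 0.32 for all genes tested, but -0.08 beside 0.27 with the length and GC offset. As these were bulk samples, a change in the share of cells that make an mRNA and a change in the mRNA per cell cannot be told apart.

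**Figure D1:**
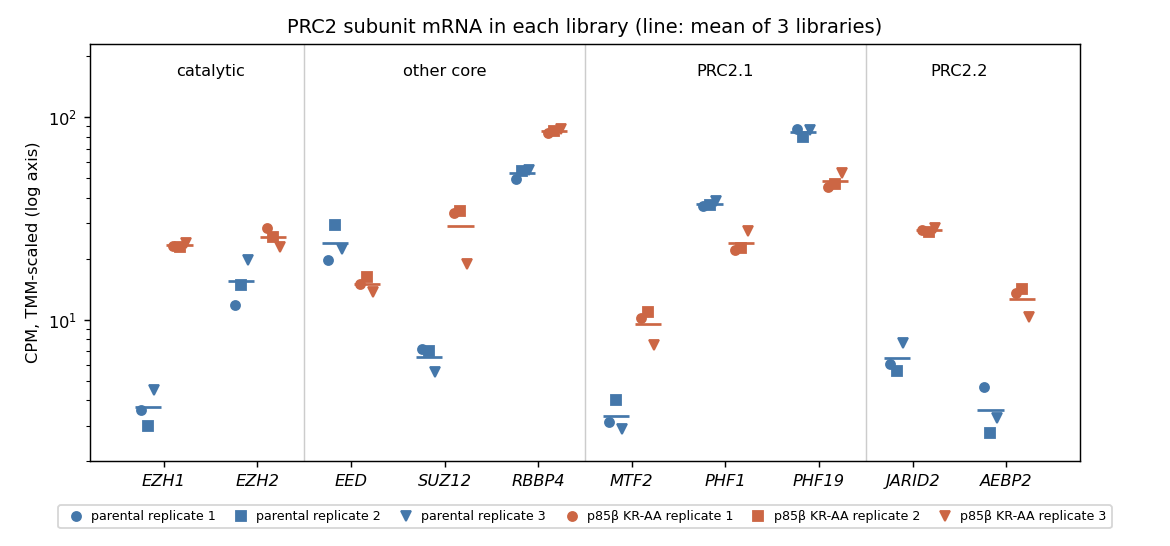
Level of each PRC2 subunit mRNA in CPM (TMM-scaled, log axis) in the 3 parental libraries (blue) and the 3 p85β KR-AA libraries (orange), with the replicate given by the shape of the point and the group mean by a line. The points of the genotypes do not overlap for any of the 10 genes, EED, PHF1 and PHF19 are the 3 that are lower in p85β KR-AA cells on this scale, and the widest spread between p85β KR-AA libraries is that of SUZ12.

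EZH1 (ENSG00000108799, chr17:40852293-40897067 in GRCh37, minus strand), the catalytic subunit with the weaker methyltransferase activity, had 54, 41 and 73 counts across the parental cells, against 851, 658 and 653 across the p85β KR-AA cells. After scaling, this was 3.59, 2.99 and 4.5 CPM against 23.2, 22.9 and 23.8 CPM. Every p85β KR-AA library was far above every parental library, and the p85β KR-AA libraries were close to each other. The mean moved from 3.69 ± 0.764 CPM to 23.3 ± 0.449 CPM (mean ± SD, n = 3), or by a log2 fold change of 2.65 (SE 0.196, edgeR adjusted p = 6.92e-08). The lowest parental count of 41 carried an exact Poisson 95% interval of 29.4 to 55.6 counts, which covers counting error only. EZH1 had the largest log2 fold change of the 10 subunits, higher than that of 84.5% of all genes tested.

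EZH2 (ENSG00000106462, chr7:148504349-148581413, minus strand), the main H3K27 methyltransferase of proliferating cells, had 177, 204 and 320 counts across the parental cells, against 1041, 735 and 629 across the p85β KR-AA cells. The scaled levels were 11.8, 14.9 and 19.7 CPM against 28.4, 25.6 and 22.9 CPM. The groups did not overlap, but the highest parental and the lowest p85β KR-AA library were close. The mean rose from 15.5 ± 4.03 to 25.6 ± 2.74 CPM (mean ± SD, n = 3), or by a log2 fold change of 0.73 (SE 0.198, edgeR adjusted p = 0.00426), which turned to -0.22 with the length and GC offset (adjusted p = 0.190). Without p85β KR-AA replicate 1 or 2, or without parental replicate 1 or 2, EZH2 no longer passed an adjusted p of 0.01, with values up to 0.0211.

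The balance between the catalytic subunits was read as EZH1 counts per base over EZH2 counts per base within each library, which does not depend on the scaling between libraries. The ratio was 0.174, 0.114 and 0.130 in parental libraries and 0.466, 0.510 and 0.591 in p85β KR-AA libraries. EZH2 thus had the higher per-length level in every library, and the ratio was higher in each p85β KR-AA library than in any parental one. On the log2 scale the mean ratio moved from -2.87 ± 0.309 to -0.94 ± 0.174 (SD, n = 3), a difference of 1.92 or 3.79-fold (two-sided exact permutation test, p = 0.1, the smallest value 3 against 3 libraries allow). The sum of EZH1 and EZH2, in RPKM (CPM divided by the deposited gene length in kilobases), was 5.23, 6.27 and 8.45 in parental and 15.8, 14.6 and 13.8 in p85β KR-AA libraries. The summed catalytic mRNA was therefore higher in all 3 p85β KR-AA libraries on the TMM scale, with means of 6.65 ± 1.64 and 14.7 ± 0.979 RPKM (SD, n = 3). Unlike the ratio, this sum depends on the scaling between libraries. EZH2, its larger part, had a log2 fold change of -0.22 with the length and GC offset.

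**Figure D2:**
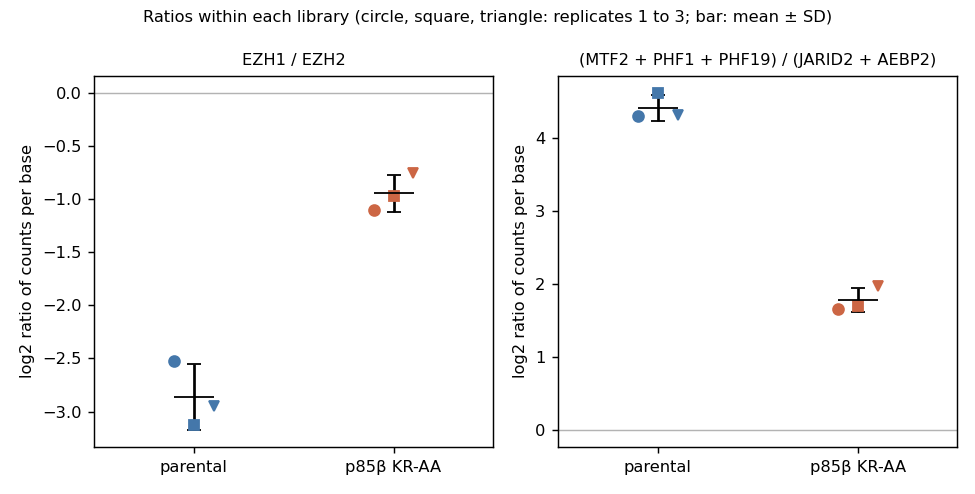
Log2 ratio of counts per base in each library (points; circle, square and triangle are replicates 1 to 3) with mean ± SD of 3 libraries, for EZH1 over EZH2 (left) and for the sum of MTF2, PHF1 and PHF19 over the sum of JARID2 and AEBP2 (right). The EZH1 to EZH2 ratio lies below 0, which marks equal levels, in all 6 libraries and is higher in p85β KR-AA cells, and the PRC2.1 to PRC2.2 ratio lies above 0 in all 6 and is lower in p85β KR-AA cells.

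Among the other core subunits, SUZ12 (ENSG00000178691, chr17:30264026-30328057, plus strand), the scaffold of the complex, had 107.44, 96 and 89 estimated counts in parental and 1226.77, 989.52 and 517.76 in p85β KR-AA libraries. This was 7.14, 6.99 and 5.49 CPM against 33.5, 34.5 and 18.9 CPM. p85β KR-AA replicate 3 was the lowest of its group and still above every parental library. SUZ12 rose by a log2 fold change of 2.15 (SE 0.242, edgeR adjusted p = 3.21e-06), from 6.54 ± 0.911 to 28.9 ± 8.73 CPM (SD, n = 3), and leaving out a library moved this value between 2.0 and 2.39. The length and GC offset ended the call, with a log2 fold change of 0.39 (adjusted p = 0.0665). SUZ12 has a transcribed pseudogene copy, SUZ12P1, with 20.56, 12 and 16 counts across the parental cells, against 71.35, 64.48 and 61.24 across the p85β KR-AA cells, between which and SUZ12 shared reads can only be divided by estimate. The other 9 annotated pseudogene copies of the 10 subunits, those of EZH2, EED and RBBP4, had at most 2 counts in every library.

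EED (ENSG00000074266, chr11:85912254-85989855, plus strand), the subunit that reads H3K27me3, had 297, 402 and 364 counts across the parental cells, against 552, 465 and 377 across the p85β KR-AA cells. The scaled levels were 19.7, 29.3 and 22.5 CPM against 15.1, 16.2 and 13.7 CPM. EED was lower in every p85β KR-AA library once scaled, although its unscaled counts were mostly higher there. The mean fell from 23.8 ± 4.92 to 15 ± 1.23 CPM (mean ± SD, n = 3), or by a log2 fold change of -0.67 (SE 0.181, edgeR adjusted p = 0.00428), and with scaling by library totals the direction turned (log2 fold change 0.27, adjusted p = 0.177). Without any 1 of the p85β KR-AA libraries EED no longer passed an adjusted p of 0.01, with values up to 0.0201.

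RBBP4 (ENSG00000162521, chr1:33116743-33151812, plus strand), a histone-binding protein that also serves other chromatin complexes, had 744.82, 742 and 887.01 estimated counts in parental and 3058.56, 2451.53 and 2397.38 in p85β KR-AA libraries. These were 49.5, 54.0 and 54.7 CPM against 83.4, 85.4 and 87.4 CPM. The replicates of each genotype were tightly grouped and well apart from the other genotype. RBBP4 rose by a log2 fold change of 0.69 (SE 0.123, edgeR adjusted p = 0.000179), but under an offset that removes the relation of counts with gene length its direction turned (log2 fold change -0.95). At 7883 bases RBBP4 is the longest of the 10 subunits in the deposited length column. Read within libraries, and chosen after the values were seen, EED exceeded SUZ12 per base by 7.33, 11.1 and 10.8 times in parental libraries and by 1.19, 1.25 and 1.93 times in p85β KR-AA libraries.

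The PRC2.1 subunits were split on the TMM scale, whereas all 3 were higher with library totals. MTF2 (ENSG00000143033, chr1:93544792-93604636, plus strand), a Polycomb-like protein that binds CpG-rich DNA, had 47, 55 and 47 counts across the parental cells, against 375, 315 and 206 across the p85β KR-AA cells, or 3.12, 4.01 and 2.90 CPM against 10.2, 11.0 and 7.51 CPM. All p85β KR-AA libraries were above all parental libraries, with replicate 3 the lowest of them. MTF2 rose from 3.34 ± 0.585 to 9.57 ± 1.82 CPM (mean ± SD, n = 3), or by a log2 fold change of 1.52 (SE 0.232, edgeR adjusted p = 5.01e-05) that lay just under the 3-fold threshold and passed it without p85β KR-AA replicate 3 or without parental replicate 2, when 5 subunits were called instead of 4. With the length and GC offset the value of MTF2 was -0.071 (adjusted p = 0.704).

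PHF1 (ENSG00000112511, chr6:33378176-33384230, plus strand), a Polycomb-like protein whose Tudor domain binds methylated H3K36, had 546, 505 and 622 counts across the parental cells, against 814, 650 and 749 across the p85β KR-AA cells. The scaled levels were 36.3, 36.8 and 38.4 CPM against 22.2, 22.6 and 27.3 CPM. PHF1 was lower in every p85β KR-AA library. The mean fell from 37.1 ± 1.10 to 24.0 ± 2.82 CPM (mean ± SD, n = 3), or by a log2 fold change of -0.63 (SE 0.148, edgeR adjusted p = 0.00165), but library totals (0.29, adjusted p = 0.0953) turned the direction, and so did an offset for length and GC content (0.83, adjusted p = 5.58e-05). Without p85β KR-AA replicate 1 or 2 PHF1 no longer passed an adjusted p of 0.01 (up to 0.0199). The end of PHF1 overlaps that of CUTA on the opposite strand by 12 bases, and CUTA had 2989, 3250 and 2898 counts across the parental cells, against 1771, 1427 and 1517 across the p85β KR-AA cells.

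PHF19 (ENSG00000119403, chr9:123617929-123657174, minus strand), the third Polycomb-like protein, had 1319, 1097 and 1406 counts across the parental cells, against 1666, 1337 and 1456 across the p85β KR-AA cells. After scaling these were 87.6, 79.9 and 86.7 CPM against 45.4, 46.6 and 53.1 CPM. PHF19 had the highest per-length level of all 10 subunits in both genotypes and was lower in each p85β KR-AA library. The mean fell from 84.7 ± 4.23 to 48.3 ± 4.11 CPM (mean ± SD, n = 3), or by a log2 fold change of -0.81 (SE 0.129, edgeR adjusted p = 7.30e-05), and library totals turned the direction (0.11, adjusted p = 0.454).

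Both PRC2.2 subunits rose on the TMM scale, though AEBP2 was at -0.094 with the length and GC offset (adjusted p = 0.70). JARID2 (ENSG00000008083, chr6:15246300-15522273, plus strand), which binds nucleosomes and helps to recruit PRC2, had 91, 77 and 125 counts across the parental cells, against 1022, 776 and 782 across the p85β KR-AA cells. In scaled units this was 6.04, 5.61 and 7.71 CPM against 27.9, 27 and 28.5 CPM. The p85β KR-AA libraries agreed closely with each other and stood well above the parental ones. The mean rose from 6.45 ± 1.11 to 27.8 ± 0.741 CPM (mean ± SD, n = 3), or by a log2 fold change of 2.1 (SE 0.178, edgeR adjusted p = 2.31e-07).

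AEBP2 (ENSG00000139154, chr12:19556979-19873735, plus strand), a zinc finger protein that stabilizes the complex, had 70, 38 and 53 counts across the parental cells, against 498, 408 and 282 across the p85β KR-AA cells. The scaled levels were 4.65, 2.77 and 3.27 CPM against 13.6, 14.2 and 10.3 CPM. Parental AEBP2 was among the least abundant values of the set, with an exact Poisson 95% interval of 26.9 to 52.2 counts for the count of 38, and the groups did not overlap. AEBP2 rose from 3.56 ± 0.975 to 12.7 ± 2.11 CPM (mean ± SD, n = 3), or by a log2 fold change of 1.83 (SE 0.239, edgeR adjusted p = 1.25e-05).

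The summed per-length level of MTF2, PHF1 and PHF19 was set against that of JARID2 and AEBP2 within each library, as a description without a test. The ratio was 19.6, 24.5 and 19.9 in parental and 3.16, 3.26 and 3.91 in p85β KR-AA libraries. PRC2.1 subunit mRNA was in excess in all 6 libraries, and by less in each p85β KR-AA library. The log2 ratio moved from 4.41 ± 0.180 to 1.78 ± 0.167 (SD, n = 3), a difference of -2.63, which was -1.75 with the length offset and -0.55 with the length and GC offset. Behind this stood a summed PRC2.1 level of 37.4 ± 1.07 RPKM in parental and 24.4 ± 1.79 RPKM in p85β KR-AA cells, and a summed PRC2.2 level of 1.77 ± 0.257 and 7.12 ± 0.309 RPKM. Sums are dominated by PHF1 and PHF19, and when the mean log2 levels of the 3 and the 2 genes were used the difference was -1.96. Within each form, chosen after the values were seen, MTF2 was 0.0360, 0.0506 and 0.0337 of PHF19 per base in parental and 0.227, 0.238 and 0.143 in p85β KR-AA libraries, whereas JARID2 over AEBP2 was 1.10, 1.72 and 2.0 against 1.74, 1.62 and 2.36, ratios that overlapped between the genotypes. This contrast did not hold with the length and GC offset, under which the log2 difference between genotypes went from 2.32 to 0.22 for MTF2 over PHF19 and from 0.27 to 1.25 for JARID2 over AEBP2.

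Compared by length, the subunits of parental cells fell into an abundant and a scarce group. PHF19 (20.6 ± 1.03 RPKM, SD, n = 3), PHF1 (15.9 ± 0.472), EED (14.0 ± 2.90), RBBP4 (6.69 ± 0.362) and EZH2 (5.85 ± 1.53) led, and SUZ12 (1.45 ± 0.203), JARID2 (1.08 ± 0.185), MTF2 (0.820 ± 0.144), EZH1 (0.797 ± 0.165) and AEBP2 (0.699 ± 0.191) followed. Neighbours whose libraries did not overlap were PHF19 and PHF1, EED and RBBP4, and EZH2 and SUZ12, and every other pair of neighbours overlapped. In p85β KR-AA cells the order was PHF19 (11.8 ± 1.000 RPKM), RBBP4 (10.8 ± 0.249), PHF1 (10.3 ± 1.21), EZH2 (9.71 ± 1.04), EED (8.84 ± 0.724), SUZ12 (6.44 ± 1.94), EZH1 (5.03 ± 0.0969), JARID2 (4.63 ± 0.123), AEBP2 (2.49 ± 0.414) and MTF2 (2.35 ± 0.447). Here the first 5 overlapped each with the next, and breaks stood only between EED and SUZ12, EZH1 and JARID2, and JARID2 and AEBP2. On this TMM scale all 5 scarce mRNAs of parental cells rose, and 3 of the 5 abundant ones fell. The groups were formed from parental levels that also enter the fold change, so this is a description only. With the length and GC offset EZH1 (2.2) and JARID2 (1.2) remained higher and EED (-1.13) remained lower. MTF2 (-0.071), AEBP2 (-0.094) and SUZ12 (0.39) did not pass, and abundant PHF1 was higher (0.83). The sum over the 10 subunits was 64.3, 69.6 and 70.1 RPKM in parental and 73.1, 73.7 and 70.4 RPKM in p85β KR-AA libraries. The means of 68.0 ± 3.22 and 72.4 ± 1.74 RPKM (SD, n = 3) were close on the TMM scale, while the composition differed. Their closeness depends on that scale, as library totals put all 10 subunits higher in p85β KR-AA cells.

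**Figure D3:**
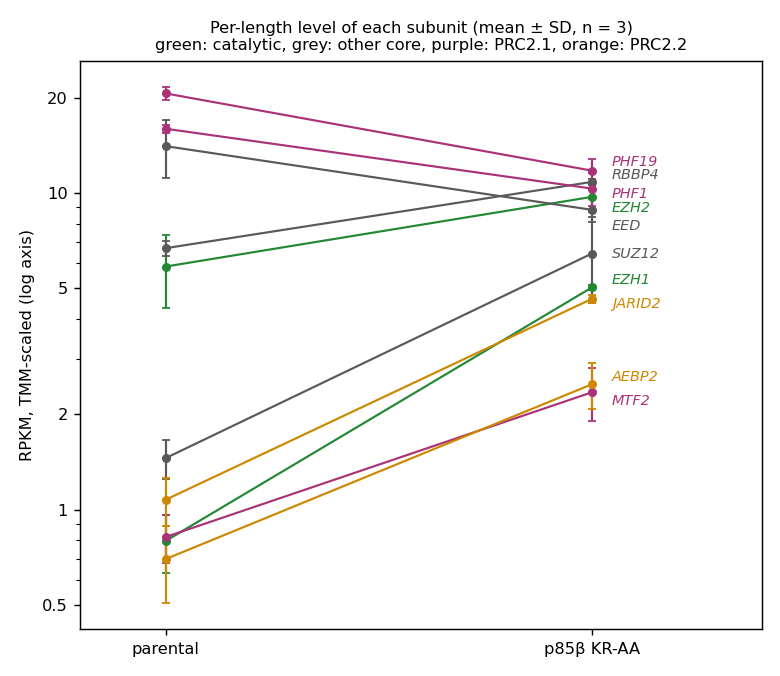
Per-length level of each PRC2 subunit (RPKM, TMM-scaled, log axis; mean ± SD of 3 libraries) in parental and p85β KR-AA cells, coloured by role (green catalytic, grey other core, purple PRC2.1, orange PRC2.2). On this scale the highest and lowest subunits stood at 20.6 and 0.699 RPKM in parental cells and at 11.8 and 2.35 RPKM in p85β KR-AA cells. This range was not computed with the length and GC offset.

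The p85β KR-AA libraries were not alike for every subunit. In replicate 3, SUZ12 was 0.83, MTF2 0.47 and AEBP2 0.42 log2 units below the mean of the other p85β KR-AA libraries (0.5 CPM added before the logarithm), while PHF1 was 0.28 and PHF19 0.20 above it. The median signed deviation over all genes tested was 0.01, which does not measure how far single genes spread. Parental libraries also deviated, AEBP2 by 0.55 in replicate 1, EZH2 by -0.54 in replicate 1 and 0.55 in replicate 3, and EED by 0.46 in replicate 2. EZH1, RBBP4 and JARID2 stayed within 0.06 log2 units of the mean of the others in all 3 p85β KR-AA libraries. SUZ12, MTF2 and AEBP2 are 3 of the 4 subunits with the lowest GC content (38.2, 37.5 and 38.6%), and PHF1 and PHF19 have the highest (59.5 and 56.6%). EED, the lowest of all in GC content (33.0%), deviated less in replicate 3 (-0.18), as did EZH2 (-0.23, 40.8% GC).

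GC content and gene length moved with the fold change across the whole transcriptome. The median log2 fold change of all genes tested was 1.80 where the longest annotated transcript had under 40% GC and -1.47 where it had over 60%, and it was -1.12 for genes of up to 1000 bases and 2.14 for genes above 6000 bases. Some subunits were near the median of genes of like GC content, PHF1 (-0.63) and PHF19 (-0.81) beside -0.93 at 55 to 60% GC, and SUZ12 (2.15), AEBP2 (1.83) and MTF2 (1.52) beside 1.80 under 40%. Others were not. EED, with the lowest GC content of the 10 (33.0%), fell (-0.67) beside a median of 1.80 under 40% GC. EZH1 (2.65, 50.6% GC) stood beside a median of -0.24 at 50 to 55% GC. By length, EED, the shortest of the 10 (1696 bases), was near the median of -0.70 for genes of 1000 to 2000 bases. PHF19 (4113 bases) was at -0.81 beside a median of 1.2 for genes of 4000 to 6000 bases, and RBBP4 (7883 bases) at 0.69 beside 2.14 above 6000 bases. Whether these relations come from library preparation or from the cells was not tested.

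**Figure D4:**
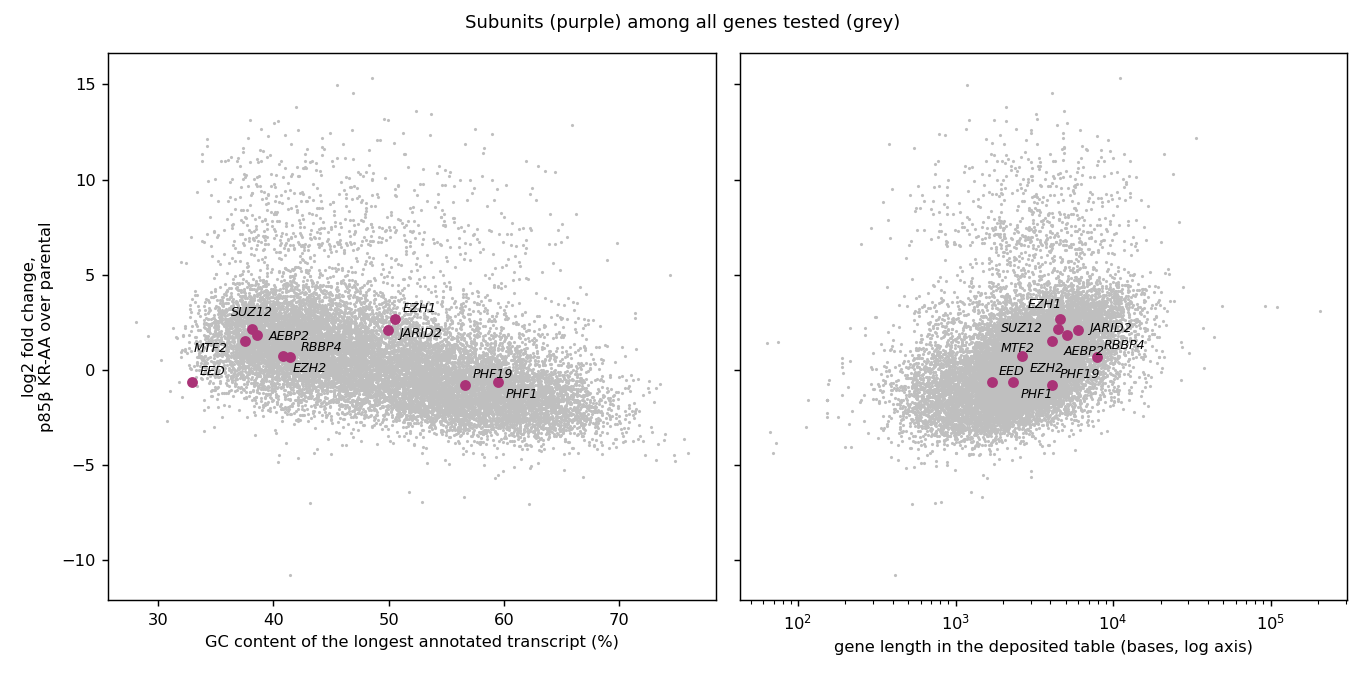
Log2 fold change, p85β KR-AA over parental, of all genes tested (grey points) and of the 10 PRC2 subunits (purple, named) against the GC content of the longest annotated transcript in percent (left) and the deposited gene length in bases on a log axis (right). Fold changes decline with GC content, from a median of 1.80 below 40% to -1.47 above 60%, and increase with length, and the subunits sit within the cloud of all genes.

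When per-library offsets removed both relations, 5 of the 10 subunits passed an adjusted p of 0.01, beside 63.6% of the 15902 genes with a GC value. EZH1 kept its call, with a log2 fold change of 2.2 (edgeR adjusted p = 1.82e-07), and was the 1 subunit called up by at least 3-fold, beside 17.7% of genes. JARID2 also remained higher (1.2, adjusted p = 9.62e-06), but under 3-fold. PHF1 was then higher (0.83, adjusted p = 5.58e-05), EED remained lower (-1.13, adjusted p = 3.48e-05), and RBBP4 was called down by at least 3-fold (-1.61, adjusted p = 3.50e-07), beside 6.57% of genes. The values of EZH2 (-0.22), SUZ12 (0.39), MTF2 (-0.071), AEBP2 (-0.094) and PHF19 (-0.30) did not pass, with adjusted p from 0.0145 for PHF19 to 0.704 for MTF2. The difference of the EZH1 to EZH2 log2 ratio was 2.41 with this offset and 0.92 with length alone, and that of PRC2.1 to PRC2.2 remained below 0 under both. EZH1, SUZ12 and JARID2 had the same direction under TMM, library totals, the length offset and the length and GC offset.

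**Figure D5:**
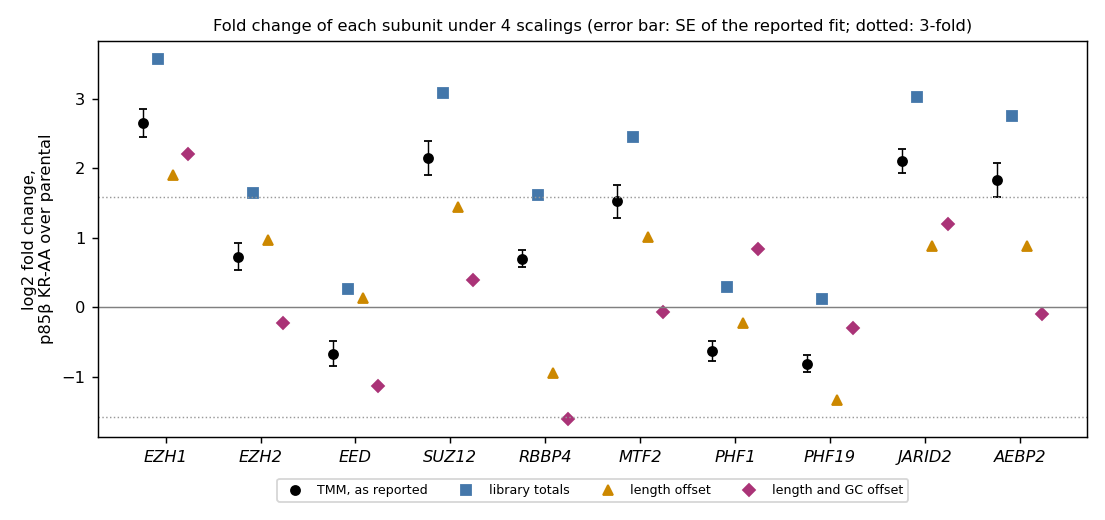
Log2 fold change, p85β KR-AA over parental, of each PRC2 subunit under TMM scaling as reported (black, with SE), library totals (blue squares), a gene length offset (orange triangles) and a length and GC offset (purple diamonds); dotted lines mark 3-fold. EZH1 is above the upper line under all 4, from 1.90 to 3.57, whereas RBBP4 runs from 1.62 with library totals to -1.61 with the length and GC offset.

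Genes that act with or on PRC2 were described from lists chosen for their known roles. For comparison, 41.6% of all genes tested rose and 32.7% fell, 28.6% and 17.6% by at least 3-fold. Of 5 further components, 4 could be tested. RBBP7 (log2 fold change 0.90), the paralog that can replace RBBP4, and LCOR (3.61) and LCORL (1.07), whose loci encode the PALI subunits of PRC2.1, rose, and EPOP (-1.85), a PRC2.1 subunit that binds elongin, fell, with edgeR adjusted p from 1.62e-08 to 0.00724. EZHIP, an inhibitor of EZH2, had 1 count in 1 parental library and 0 in the other 5. LCOR had 51, 30 and 40 counts across the parental cells, against 1265, 1065 and 743 across the p85β KR-AA cells, and EPOP had 1111, 788 and 1035 against 679, 531 and 469. LCOR was thus higher and EPOP lower in every library of the mutant, both by more than 3-fold on the TMM scale. Neither kept a 3-fold call under every scaling, LCOR being at 1.29 with the length offset and 0.90 with length and GC, and EPOP at -0.93 with library totals and -0.55 with length and GC, and LCORL turned direction under both offsets.

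The demethylases that remove H3K27 methylation both rose on the TMM scale. Of all genes tested, 41.6% rose, and 83.4% had no overlap between the genotypes. KDM6A had 15, 16 and 39 counts across the parental cells, against 571, 472 and 360 across the p85β KR-AA cells, with no overlap (log2 fold change 3.28, SE 0.292, edgeR adjusted p = 3.62e-07), and with the length and GC offset it was at 1.17 (adjusted p = 0.00184), under 3-fold. KDM6B rose by 0.71 (SE 0.154, adjusted p = 0.000858), and its direction turned with the length offset (-0.69).

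Of 7 ubiquitin ligases and deubiquitinases known to act on EZH2 protein, 5 rose, 1 fell and 1 did not pass the test. Among all genes tested, 41.6% rose and 32.7% fell. USP7, a deubiquitinase examined in the study, had 344, 310 and 495 counts across the parental cells, against 3653, 2971 and 2919 across the p85β KR-AA cells. Its libraries did not overlap between genotypes, nor did those of 83.4% of all genes tested. USP7 rose by a log2 fold change of 2.02 (SE 0.151, edgeR adjusted p = 7.58e-08). ZRANB1 (1.78), SMURF2 (1.95), BTRC (1.76) and FBXW7 (1.13) rose, PJA1 fell (-0.52, but 0.41 with library totals), and USP21 was at 0.10 (adjusted p = 0.571). With the length and GC offset USP7 was at 0.95 (adjusted p = 1.33e-05), ZRANB1 and SMURF2 turned direction, and 0 genes of this list were called at 3-fold. USP21 was higher with that offset (0.73, edgeR adjusted p = 0.000274) and with library totals (1.03, edgeR adjusted p = 0.000199).

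The E2F and RB regulators of EZH2 and EED transcription were split. E2F1 had 1764.36, 1440.63 and 1670.97 estimated counts in parental and 905.44, 716.84 and 853.76 in p85β KR-AA libraries. It fell without overlap, beside 83.4% of all genes without overlap (log2 fold change -2.01, SE 0.144, edgeR adjusted p = 5.19e-08). E2F2 also fell (-1.26), and E2F3 (2.54), RB1 (2.48) and MYC (0.69) rose. E2F1 still fell with library totals (-1.09) and with the length and GC offset (-0.51), but by less than 3-fold. E2F2 did not pass with library totals (-0.35, edgeR adjusted p = 0.198). Of 8 proliferation genes, 4 rose, among them TOP2A (3.14) and MKI67 (2.42), and 4 fell, among them MCM5 (-2.63) and MCM2 (-2.38), with a median of -0.03, and PCNA and CCNB1 turned direction with library totals and CDK1 with the length and GC offset. MKI67 did not pass with the length offset (0.30, edgeR adjusted p = 0.257) or with length and GC (0.61, adjusted p = 0.0184), under which 1 of the 8 rose and 4 fell. On the TMM scale all of these directions had edgeR adjusted p under 0.01. Over the 27 listed genes that are not subunits, 26 were tested, 17 rose and 8 fell, 10 and 4 of them by at least 3-fold, with a median log2 fold change of 0.99 beside 0.32 for all genes tested. With the length and GC offset that median was 0.22 beside 0.27, 10 rose and 8 fell, and 0 rose by at least 3-fold in edgeR (12 were higher at an unadjusted p under 0.05). Among all genes tested, 41.6% rose and 32.7% fell on the TMM scale, 28.6% and 17.6% by at least 3-fold. With the length and GC offset 63.6% passed in either direction and 17.7% rose by at least 3-fold.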

How the data were processed

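RNA-seq of DLD1 parental and p85β KR-AA cells, 3 libraries each, was analysed. RNA was extracted with TRIzol, and libraries were made with an Illumina TruSeq kit, per the labels. The methods of the study describe trimming with SeqPrep and Sickle. The submitters' processing notes name HISAT2 2.1.0, RSEM 1.3.1, DESeq2 1.24.0 and the build hg18, without roles. Nothing read here states whether counting used strand. The authors deposited a table of estimated counts without normalization for each Ensembl gene and a gene length in bases, and every column was used.

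Estimated counts were rounded and tested in R 4.3.3 with edgeR 4.0.16 (low counts removed by filterByExpr, minimum count 10, minimum total 15; TMM, quasi-likelihood F test, Benjamini-Hochberg adjustment over 16059 genes). Rose and fell mean an adjusted p under 0.01, and a call needed a fold of at least 3 as well, after the study's thresholds. CPM and RPKM use TMM-scaled totals, and RPKM and the ratios use the deposited length. Standard errors were derived from the fold change and the F statistic. Gene positions came from GENCODE 44 on GRCh37 (56745 of 58884 genes matched), the deposited counts carrying no coordinates. All 10 subunits and the listed genes were named by role, and the members and lists were chosen with earlier results of these data known. Intervals cover counting error only. Alternatives were DESeq2 1.42.0, library totals, no filter, a replicate block, each library left out, other thresholds, and per-library spline offsets (5 degrees of freedom) for gene length and GC content. Scripts were tested on simulated data.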

Additional observations from a re-analysis of the deposited data

How the results depend on the processing

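Calls and directions depended on scaling. Library totals shifted the median log2 fold change of all genes by 0.92 and gave 7 subunits called up. The length offset gave 1 called up. The length and GC offset gave 1 up and 1 down. With no fold threshold 7 rose and 3 fell. Listed genes called up numbered 17 with totals, 5 with length and 0 with length and GC, and those called down 1, 5 and 2. Directions turned with totals for EED (0.27), PHF1 (0.29), PHF19 (0.11), PJA1 (0.41), PCNA (0.21) and CCNB1 (0.14), with length for EED (0.13), RBBP4 (-0.95), LCORL (-0.88), KDM6B (-0.69) and PCNA (0.29), and with length and GC for EZH2 (-0.22), RBBP4 (-1.61), MTF2 (-0.071), PHF1 (0.83), AEBP2 (-0.094), LCORL (-1.61), ZRANB1 (-0.22), SMURF2 (-0.073) and CDK1 (-0.095). The difference of the EZH1 to EZH2 log2 ratio was 0.92 with length and 2.41 with length and GC, and that of PRC2.1 to PRC2.2 -1.75 and -0.55, or -1.96 from mean log2 levels. The cause of these shifts was not tested. Over all genes, calls up and down were 4597 and 2825 with TMM, 7052 and 973 with totals, 3892 and 2075 with length, and 2822 and 1045 with length and GC.

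Leaving out each library gave 4 to 5 subunits called up and 0 called down, 10 listed genes up and 4 down, an EZH1 to EZH2 difference from 1.79 to 2.09 (exact permutation p = 0.2, the smallest possible with 2 against 3) and a PRC2.1 to PRC2.2 difference from -2.73 to -2.53. Between 7 and 10 subunits then passed an adjusted p of 0.01, with EZH2, EED and PHF1 the ones lost. Same-numbered libraries of the genotypes did not deviate together (correlations -0.14, 0.12 and -0.04), so the numbers were not taken as pairs. With the replicate block 4 subunits were called up and 0 down and all 10 passed an adjusted p of 0.01, also with robust moderation, but the block's prior degrees of freedom were infinite (8.32 without it). The replicate block changed no call of a subunit, and pairing by number gave an EZH1 to EZH2 difference of 1.92 (exact sign-flip permutation p = 0.25, the smallest possible). DESeq2 and no filter gave 4 subunits up and 0 down. Parental counts between 38 and 125 for EZH1, SUZ12, MTF2, JARID2 and AEBP2 limit the precision of their levels.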
